A study of Mus musculus with 6 samples.

Results

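Keratins, desmosome proteins and other genes of stratified epithelium were followed in RNA-seq counts of mouse embryonic brain. The members were all RefSeq transcript IDs whose symbol was a numbered keratin, a desmoglein or a desmocollin, or Dsp, Perp, Jup, Pkp1, Pkp3, Trp63, Col17a1, Lama3, Itgb4 or Sfn. Of 23485 IDs counted, 72 met this rule, and they came from 69 genes. They were sorted into simple epithelial members (5 IDs), basal members (9), suprabasal members (16), appendage and stress keratins (5), hair and root sheath keratins with Dsg4 (24), desmosome genes shared by many epithelia (7) and other keratins (6). Krt16, Krt222, Krt8-ps, Pkp1 and Trp63 had no ID in the tables and were not analysed here.

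The study asked which transcripts differ between the sexes in the developing brain. It compared whole brains of wild-type C57BL/6 embryos at E15.5, none of them treated, in 3 samples of female and 3 of male brains. The RNA of several embryos made up each sample, and embryos had been sexed by looking for testicular cords in the gonads, so a value is an average over a pool. No litter, date or batch was given in the labels, and the spread between samples is the spread between pools.

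Keratins build the intermediate filaments of epithelial cells, and a filament needs an acidic type I chain and a basic type II chain, so that keratins are made in pairs. Krt8 with Krt18 is the pair of simple epithelia, Krt5 with Krt14 or Krt15 that of the dividing basal layer, and Krt1 with Krt10 that of the differentiating suprabasal layers of skin. Desmosomes tie these filaments together across neighbouring cells: desmogleins and desmocollins span the membrane, plakoglobin (Jup) and plakophilins bind their tails, and desmoplakin (Dsp) holds the keratins. Neurons and their progenitors are not known for these filaments, whereas skin, oral lining and other surface epithelia of the embryonic head are.

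Values are counts scaled to a common library size (CPM), taken over library totals scaled by TMM, a method that matches libraries on the bulk of their transcripts. Totals ranged from 4908565 to 10294443 counts, so 3 counts, the most that a count of 0 allows, were 0.300 to 0.598 CPM on this scale. This limit covers counting error only. Female values are listed in the order of replicates 1, 2 and 3, and so are male values. Fold changes are log2 differences of male minus female from edgeR's quasi-likelihood test, with p-values adjusted over all 13374 IDs that had 10 or more counts in at least 1 sample. Xist was at 1019 to 1425 CPM in females and 0.413 to 1.07 CPM in males, and Ddx3y of the Y chromosome was at 184 to 199.6 CPM in males and 0 to 0.199 CPM in females, so the libraries matched their labels.

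Most members of the rule lie in 3 gene clusters. In NCBIM37 coordinates, the type I keratins filled 26 IDs on chr11:99141273-100131185, from Krt24 to Krt42. The type II keratins with the type I gene Krt18 filled 25 IDs on chr15:101177875-101862457, from Krt80 to Krt18. The 9 desmoglein and desmocollin IDs came from the remaining cluster. To show what lies just before these genes, the 60 bases upstream of the RefSeq start (GRCm38.p6, read 5′ to 3′ on the gene's own strand) are given here for keratins and desmosome genes described in what follows. Capitals mark the letters ATAAA, the core of a TATA box, where they lay 40 to 16 bases before the start.
Krt5, chr15:101712906-101712965: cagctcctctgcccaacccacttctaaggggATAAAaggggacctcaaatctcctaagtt
Krt10, chr11:99389365-99389424: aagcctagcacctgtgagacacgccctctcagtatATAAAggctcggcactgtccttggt
Krt13, chr11:100121567-100121626: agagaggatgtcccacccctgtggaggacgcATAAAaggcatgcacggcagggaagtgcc
Krt25, chr11:99322952-99323011: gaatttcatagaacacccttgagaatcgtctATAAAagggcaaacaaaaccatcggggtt
Krt71, chr15:101743098-101743157: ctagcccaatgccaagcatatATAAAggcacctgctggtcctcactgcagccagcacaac
Krt77, chr15:101869706-101869765: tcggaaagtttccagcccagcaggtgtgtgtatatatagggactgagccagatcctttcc
Krt7, chr15:101412343-101412402: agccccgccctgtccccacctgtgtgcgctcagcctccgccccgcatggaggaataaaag
Krt18, chr15:102028156-102028215: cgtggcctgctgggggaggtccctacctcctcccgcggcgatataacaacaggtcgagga
Dsp, chr13:38151234-38151293: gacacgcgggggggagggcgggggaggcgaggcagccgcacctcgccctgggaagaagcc
Jup, chr11:100397791-100397850: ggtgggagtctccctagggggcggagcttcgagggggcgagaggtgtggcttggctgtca
Krt7, Krt18 and Dsp are on the plus strand and the other 7 on the minus strand. Of these 10 sequences, those of Krt5, Krt10, Krt13, Krt25 and Krt71 held the motif in that window, while Krt7 had the same letters closer to its start. RefSeq promoters were at hand for 40 of the 69 member genes. ATAAA on the gene's strand was in the window of 20 of these 40 promoters (50%), against 5.09% of 27025 promoters of all genes. The longer TATAAA, which contains it, was in 13 of 40 (32.5%), against 2.41% of all. By class, ATAAA was found in 11 of 16 hair and root sheath promoters, 4 of 8 suprabasal, 1 of 3 basal, 1 of 4 simple, 1 of 2 appendage and stress, 2 of 5 other keratin and 0 of 2 shared desmosome promoters. On both strands of the whole 250 upstream bases, TGANTCA, the letters bound by AP-1, was in 1 of 40 member promoters (2.5%), that of Krt13, against 7.82% of all. The AP-2 letters GCCNNNGGC were in 6 of 40 (15%), against 15.4% of all. Such matches describe the letters and not bound sites, and keratin genes share ancestry, so that these promoters are not independent of each other.

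Members took up 0.334%, 0.410% and 0.394% of all counts in the females and 0.533%, 0.314% and 0.480% in the males. The highest share was that of male 1 and the lowest that of male 2, so the sexes overlapped. Per kilobase of the longest annotated transcript, the order of mean levels over the 6 samples began with Perp (212 CPM per kb), Krt10 (179), Krt15 (171), Krt1 (155), Krt5 (138), Jup (100.1), Dsp (96), Krt4 (92), Sfn (82.4) and Krt17 (64.5). Krt10, Krt15, Krt1, Krt5 and Krt4 of stratified epithelia thus stood above the simple keratins Krt18 (33.9 CPM per kb), Krt8 (21.9), Krt19 (8.33) and Krt7 (6.21) on this scale. Only 48 of the 72 member IDs had the counts to be tested.

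**Figure D1:**
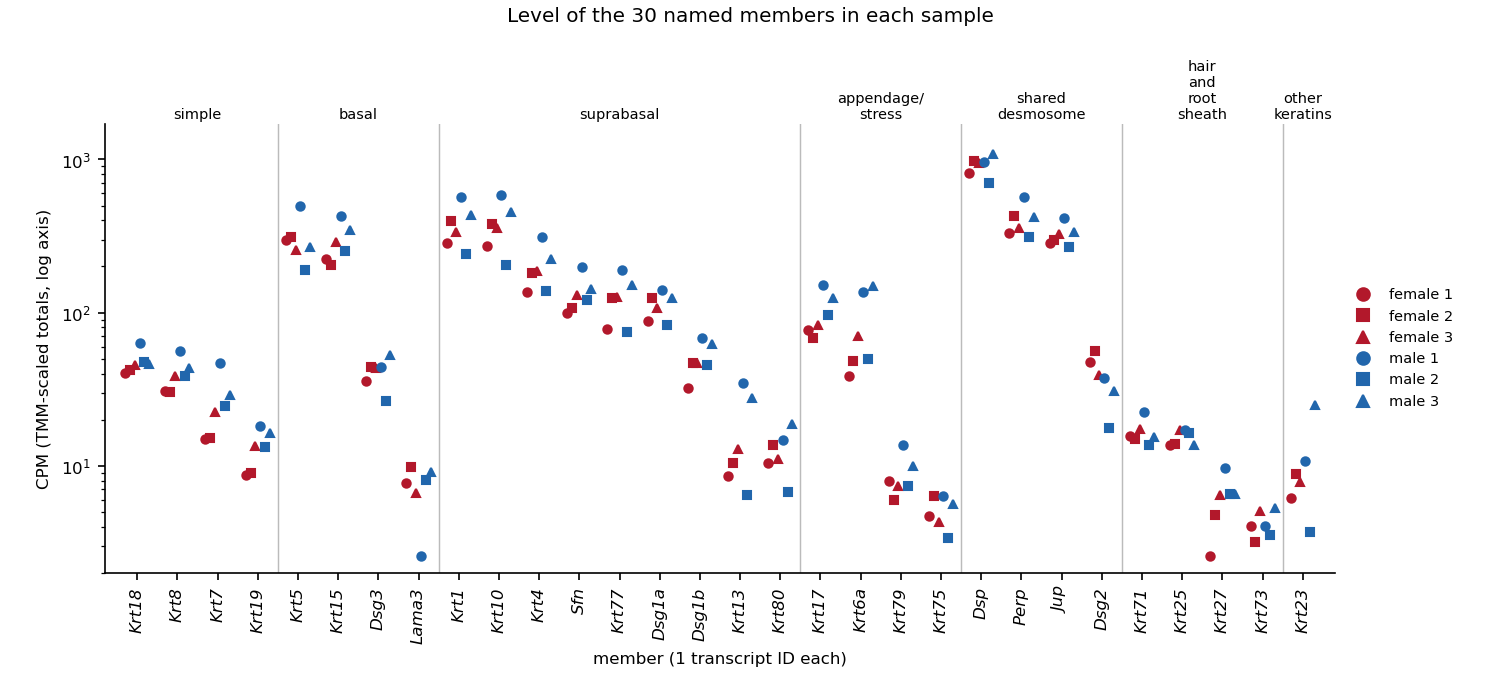
CPM of the 30 most abundant members on a log axis, grouped by class, with 1 point per sample (red female, blue male). Dsp lies highest, Krt5, Krt15, Krt1 and Krt10 follow at about the level of Perp and Jup, and male 1 is the top point for most keratins.

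No member was called between the sexes at an adjusted p under 0.05, while 4 of 13374 IDs were (0.0299%). The members' adjusted p ran from 0.338 to 0.995. At an unadjusted p under 0.05 stood 10 of 48 members, or 20.8%, against 11.5% of all tested IDs. Of the 10, 9 were higher in males (18.8% of members, against 6.68% of all IDs) and 1 was higher in females (2.08%, against 4.82% of all IDs). The 9 were Krt7, Krt8, Krt19, Krt15, Sfn, Dsg1b, Krt13, Krt17 and Krt6a, and the 1 was Dsg2. Fold changes were positive for 39 of 48 members, against 49.0% of all tested IDs, and their median was 0.30 on the log2 scale against -0.01 for all. That median was 0.12 without male 1, 0.19 without female 1 and 0.58 without male 2, where the median of all IDs was 0.0017, 0.00034 and 0.00084, and 0.19 without the filter on low counts, where that of all IDs was -0.11. These members shared 6 libraries and male 1 was the highest sample for 27 of 48, so they do not count as separate observations. With male 1 left out, 6 of 45 members (13.3%) stood at an unadjusted p under 0.05, near the 9.49% of all IDs in that fit, and 28 had a positive fold change. With male 2 left out, 20 of 47 members (42.6%) did so against 8.94% of all IDs, and Krt13 and Krt6a were called at an adjusted p under 0.05, where 0.0601% of all IDs were called. DESeq2, another count test, called Krt7 and Krt17 on all 6 samples, where it called 0.71% of all IDs. DESeq2 with 1 RUVr factor (a term for unwanted variation read from the residuals) called Dsg2, Krt7, Krt15, Krt17 and Sfn, with 2.6% of all IDs called. Without the filter on low counts, edgeR called Dsg2, Krt7, Krt13, Krt15, Krt17 and Krt6a, with 1.18% of all IDs called.

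**Figure D2:**
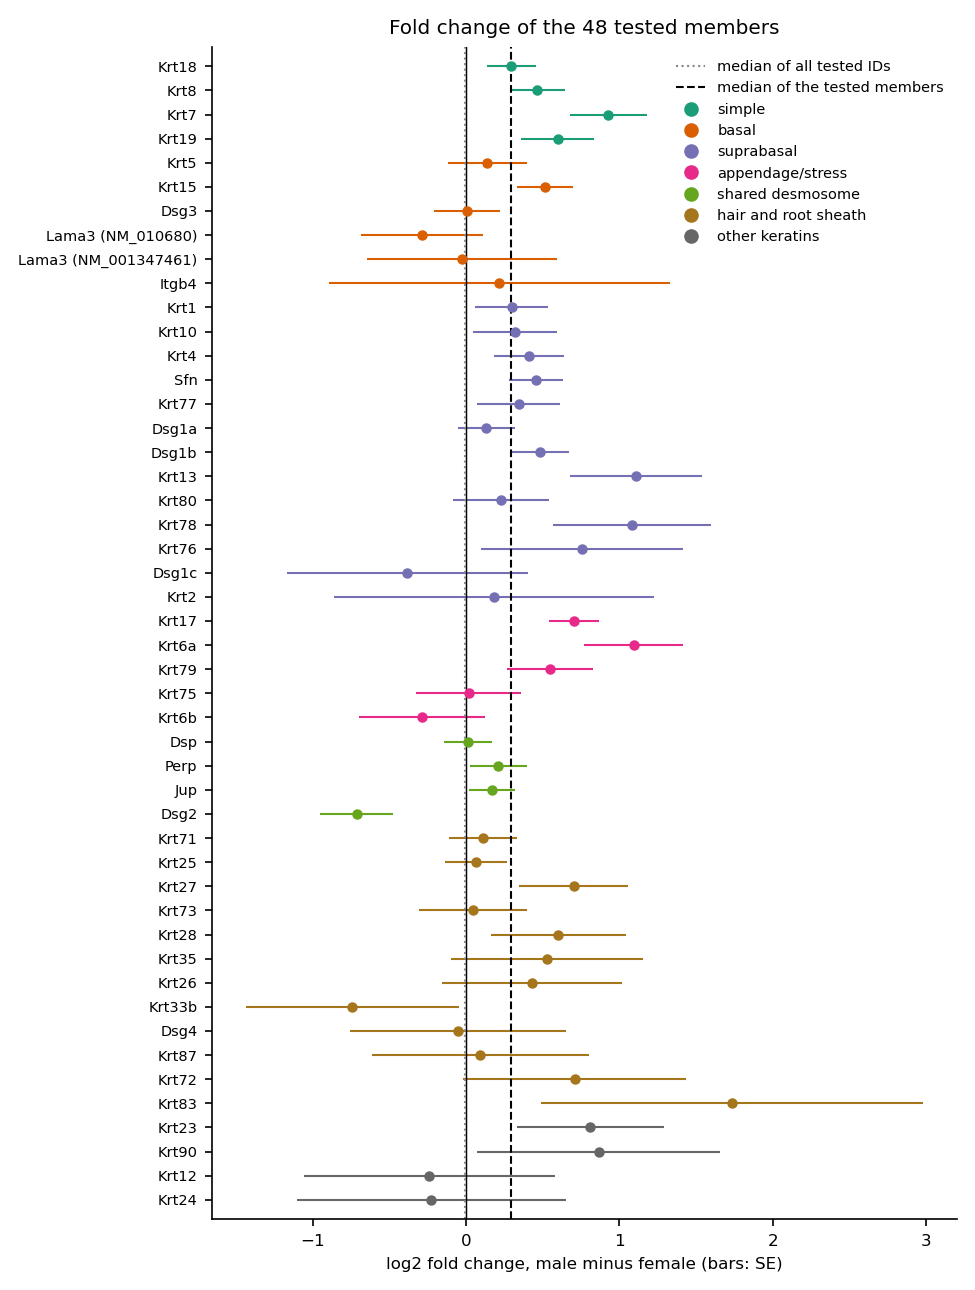
Log2 fold change of male minus female for the 48 tested members by class, with SE bars and lines at the median of the members (0.30) and of all tested IDs (-0.01). The simple keratins, Krt17, Krt6a and most suprabasal members lie right of 0, and Dsg2 stands to the left.

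Simple epithelial keratins line glands, ducts and other unstratified epithelia. All 4 tested members of this class had higher mean CPM in males, while 49.0% of all tested IDs had a positive fold change. At an unadjusted p under 0.05 stood 3 of the 4 (75%, against 6.68% of all IDs that were higher in males). Male 1 was the highest sample for all 4, against 25.4% of all tested IDs. Krt7 (NM_033073, chr15:101241474-101260744), a type II keratin of ducts and glands, was at 14.9, 15.2 and 22.3 CPM in the females and 46.8, 24.4 and 29.1 CPM in the males, with a fold change of 0.93 ± 0.25 (SE, adjusted p = 0.338). Its lowest male lay above its highest female. Krt8 (NM_031170, chr15:101827142-101834773), the type II keratin of simple epithelia, was at 30.6, 30.3 and 38.7 CPM in the females and 55.9, 38.3 and 43.6 CPM in the males, a difference of 0.46 ± 0.18 (SE, adjusted p = 0.379). Male 2 lay just under female 3, and the other samples of the sexes were apart. Krt18 (NM_010664, chr15:101858647-101862457), its type I partner, was at 40.1, 41.9 and 45.8 CPM in the females and 63.1, 47.5 and 46.2 CPM in the males, which gave 0.30 ± 0.16 (SE, adjusted p = 0.49). The sexes did not overlap for Krt18, though males 2 and 3 lay close to female 3. Krt19 (NM_008471, chr11:100002124-100009979), a type I keratin that lacks most of the tail, was at 8.73, 8.97 and 13.5 CPM in the females and 18.1, 13.3 and 16.3 CPM in the males, a difference of 0.60 ± 0.24 (SE, adjusted p = 0.385). Male 2 again lay just under female 3, and 1 of its 2 RefSeq IDs was in the tables. Krt20, a type I keratin of gut and Merkel cells, had 0 to 9 counts and was not tested. Among the 48 tested members, 4 had every male above every female (Krt7, Krt18, Krt17 and Krt27), against 8.70% of all IDs. Only Dsg2 had every female above every male, against 8.35% of all IDs, so such separation was no more frequent among the members than elsewhere.

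Basal members make the filaments and anchors of the dividing layer that rests on the basement membrane. Of 6 tested IDs, 1 stood at an unadjusted p under 0.05 (16.7%, against 11.5% of all IDs), and the median fold change was 0.07. Krt5 (NM_027011, chr15:101537501-101543322), the type II keratin of this layer, was at 299, 313 and 256 CPM in the females and 495, 189 and 268 CPM in the males, a difference of 0.14 ± 0.26 (SE, adjusted p = 0.866). Male 1 was the highest and male 2 the lowest of all 6 samples, so the males spanned the females. Krt15 (NM_008469, chr11:99993072-99997263), a type I keratin of basal cells, was at 224, 206 and 288 CPM in the females and 429, 253 and 344 CPM in the males, which gave 0.51 ± 0.18 (SE, adjusted p = 0.352). Only male 2 lay within the female range. Dsg3 (NM_030596), the desmoglein of basal layers and of oral epithelium, was at 35.9, 43.9 and 43.5 CPM in the females and 44.1, 26.6 and 52.6 CPM in the males, with means of 41.1 ± 4.5 CPM in females and 41.1 ± 13.3 CPM in males (SD, n = 3) and a fold change of 0.0072 ± 0.22 (SE, adjusted p = 0.995). Lama3 (NM_010680), the alpha chain of the laminin under epithelia, was at 7.76, 9.77 and 6.62 CPM in the females and 2.58, 8.09 and 9.09 CPM in the males, a difference of -0.28 ± 0.40 (SE, adjusted p = 0.813). Here male 1 was the lowest sample, unlike for Krt5 and Krt15. A further Lama3 ID had 4 to 15 counts and the single Itgb4 ID 0 to 10 counts.

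Several defining basal genes were at or near 0 in these tables. Krt14, the usual type I partner of Krt5, had 1 to 5 counts, Col17a1, a hemidesmosome collagen, 0 to 4, and Dsc3, the basal desmocollin, 0 to 1. For these genes the tables held only part of the RefSeq IDs, namely 1 of 3 for Krt14 and 1 of 2 for Col17a1, Itgb4 and Dsc3, and the other IDs were not analysed here. Low counts for these IDs therefore give no level for the gene.

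Suprabasal members appear when keratinocytes leave the basal layer. They were the class with the largest summed level among the keratin classes. At an unadjusted p under 0.05 stood 3 of 13 tested IDs, all higher in males (23.1%, against 6.68% of all IDs). Krt1 (NM_008473, chr15:101675859-101681217), the type II keratin of differentiating skin, was at 286, 394 and 338 CPM in the females and 573, 240.3 and 436 CPM in the males, a difference of 0.30 ± 0.24 (SE, adjusted p = 0.642). Krt10 (NM_010660, chr11:99246568-99250678), its type I partner, was at 271, 376 and 356 CPM in the females and 589, 205 and 456 CPM in the males, a difference of 0.32 ± 0.28 (SE, adjusted p = 0.67). Both genes had the same order of samples, with male 1 highest, then male 3, female 2, female 3, female 1 and male 2. Krt77 (NM_001003667, chr15:101689163-101700136), a type II keratin of skin, was at 78.4, 125 and 126 CPM in the females and 191, 75.1 and 151 CPM in the males, which gave 0.34 ± 0.27 (SE, adjusted p = 0.636). It too had male 1 highest and male 2 lowest. Krt4 (NM_008475, chr15:101748967-101755166), the type II keratin of the lining of mouth and oesophagus, was at 137, 180.2 and 188 CPM in the females and 309.9, 139 and 223 CPM in the males, a difference of 0.41 ± 0.23 (SE, adjusted p = 0.498). Male 1 was its highest and female 1 its lowest sample, with male 2 close to the latter. Krt13 (NM_010662, chr11:99978641-99982880), its type I partner in these linings, was at 8.57, 10.4 and 12.8 CPM in the females and 34.5, 6.41 and 27.6 CPM in the males, and its fold change of 1.11 ± 0.43 (SE, adjusted p = 0.379) was the largest of the 30 named members. For Krt13, males 1 and 3 lay above all females and male 2 below all of them.

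Sfn (NM_018754, chr4:133156471-133158083), the 14-3-3 sigma protein of differentiating keratinocytes, was at 99.3, 107 and 129.5 CPM in the females and 199, 120.2 and 142 CPM in the males, a difference of 0.46 ± 0.18 (SE, adjusted p = 0.379). Only male 2 lay within the female range. Dsg1a (NM_010079), a desmoglein of the upper skin layers, was at 88, 125 and 107 CPM in the females and 141, 83.5 and 125 CPM in the males, which gave 0.13 ± 0.19 (SE, adjusted p = 0.816). Dsg1b (NM_181682), a close copy of it, was at 32.3, 46.6 and 47.1 CPM in the females and 68.1, 45.3 and 62.3 CPM in the males, which gave 0.48 ± 0.19 (SE, adjusted p = 0.383). Male 2 was inside the female range for Dsg1b and the lowest sample for Dsg1a. The copies Dsg1a, Dsg1b and Dsg1c are alike in sequence and reads may be split between them, so the values of each are uncertain. Krt80 (NM_028770, chr15:101177875-101200556), a type II keratin of several epithelia, was at 10.4, 13.6 and 11 CPM in the females and 14.8, 6.71 and 18.8 CPM in the males, a difference of 0.23 ± 0.31 (SE, adjusted p = 0.81). Of the lower members, Krt78 was at 1.46 to 3.39 CPM in females and 1.68 to 6.99 CPM in males, and Krt76, Krt2 and Dsg1c reached at most 2.4 CPM in any sample. Krt9, the keratin of palm and sole skin, Dsc1 and a further ID of Krt13 had 0 to 5 counts and were not tested. For Dsc1, too, the tables held 1 of 2 RefSeq IDs.

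**Figure D3:**
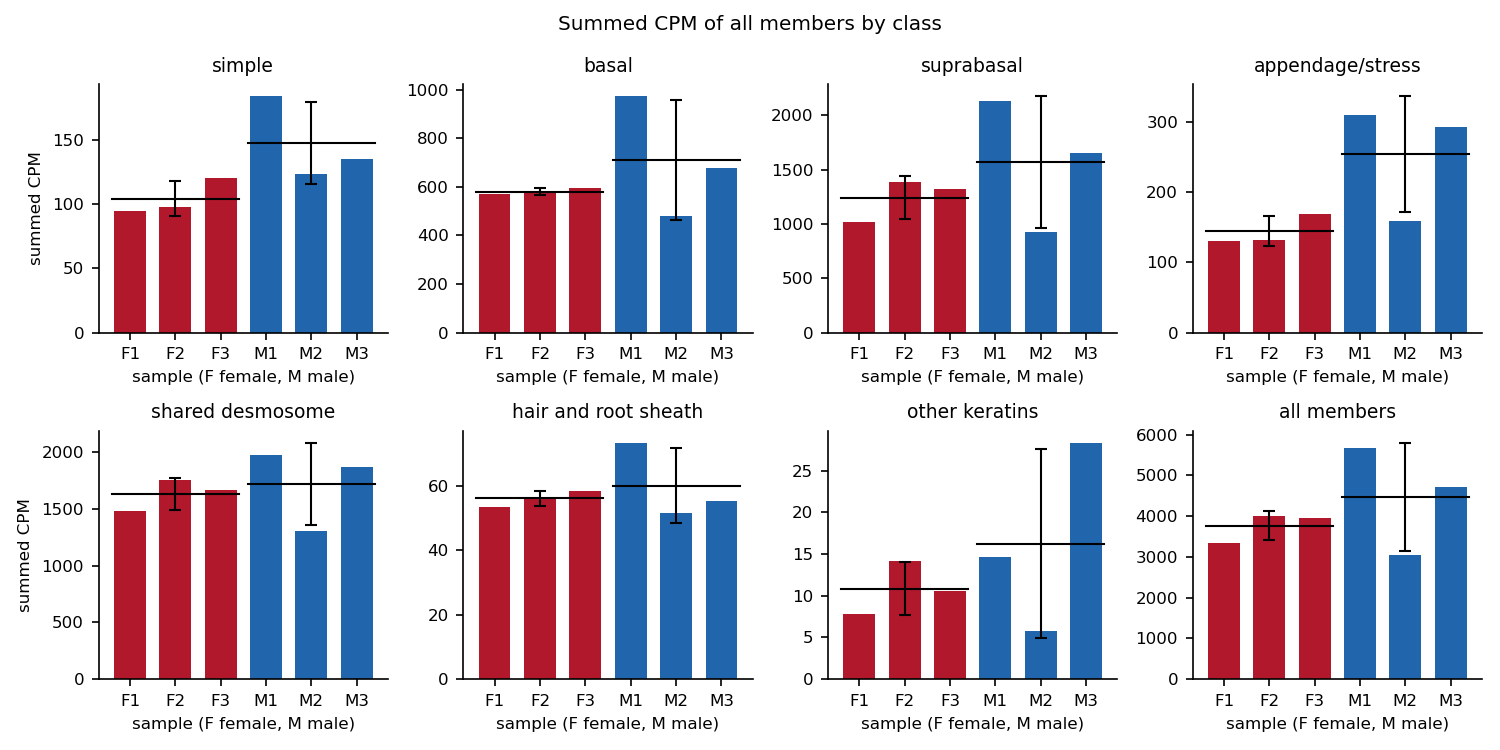
Summed CPM of all members of each class in each sample (bars, red female, blue male), with the mean of each sex as a line and its SD as an error bar (n = 3). Male 1 is the highest sample for all classes but the other keratins, and male 2 is the lowest for all but the simple and the appendage and stress classes.

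Summed over a class, the suprabasal members were at 1015, 1383 and 1322 CPM in the females and 2129, 928 and 1654 CPM in the males. The basal members were at 569, 573 and 596 CPM in the females and 973, 479.9 and 676 CPM in the males. The highest male was thus 2.29 times the lowest male for the suprabasal class and 2.03 times for the basal class, and the females lay between them. Simple members summed to 95.1, 98.1 and 120.3 CPM in the females and 184, 123.7 and 135 CPM in the males, and here all 3 males lay above all 3 females. Male 2 and female 3 were close. The sums of the choroid plexus markers and of the pituitary and oral markers, given further on, separated in the same way. The male spread of the suprabasal sum (SD 605 CPM) was larger than the difference between the means, 1570.1 CPM in males and 1240.1 CPM in females. In these bulk samples, more epithelial cells and more RNA per epithelial cell cannot be told apart.

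Appendage and stress keratins are made in hair follicles, glands and the periderm, and in wounded skin. Krt17 (NM_010663, chr11:100117531-100122343), a type I keratin of follicles, was at 77.1, 67.8 and 83.2 CPM in the females and 151, 96.6 and 124 CPM in the males, with means of 76 ± 7.75 CPM in females and 124 ± 27.2 CPM in males (SD, n = 3) and a fold change of 0.70 ± 0.16 (SE, adjusted p = 0.338). The sexes did not overlap. Krt6a (NM_008476, chr15:101520363-101524738), a type II partner of Krt17, was at 38.3, 48 and 69.8 CPM in the females and 136, 50.05 and 149 CPM in the males, a difference of 1.09 ± 0.32 (SE, adjusted p = 0.341). Males 1 and 3 lay far above the females, and male 2 lay among them. Krt79 (NM_146063, chr15:101759763-101770755), a type II keratin of the hair canal and sebaceous duct, was at 7.92, 5.98 and 7.34 CPM in the females and 13.7, 7.32 and 9.99 CPM in the males, which gave 0.55 ± 0.28 (SE, adjusted p = 0.465). Krt75 (NM_133357, chr15:101393776-101404335), a type II keratin of the follicle's companion layer, was at 4.69, 6.38 and 4.28 CPM in the females and 6.3, 3.36 and 5.59 CPM in the males, a difference of 0.02 ± 0.34 (SE, adjusted p = 0.989). Krt6b, a near copy of Krt6a, was at 1.83 to 4.19 CPM, and reads of the pair may be assigned to either.

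Type I and type II partners were next compared within each sample, on CPM per kilobase of the longest annotated transcript. The ratio of Krt1 to Krt10 was 0.812 to 1.00 over the 6 samples, although the highest sample was 2.38 times the lowest for Krt1 and 2.87 times for Krt10. That of Krt8 to Krt18 was 0.561 to 0.732. The ratio of Krt71 to Krt25, a pair of the inner root sheath, was 0.766 to 1.20. Krt5 to Krt15 ran from 0.580 in male 2 to 1.18 in female 2, and Krt6a to Krt17 from 0.342 in female 1 to 0.823 in male 3. Krt4 to Krt13 ran from 6.27 in male 3 to 16.8 in male 2, the widest relative range of these pairs. The Krt13 value was that of the more abundant of its 2 IDs, and how reads shared by them were counted is not known. Whether this pair kept its proportion less than the others is therefore uncertain. The values of each pair come from the same libraries, and the ratios are descriptions without a test.

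**Figure D4:**
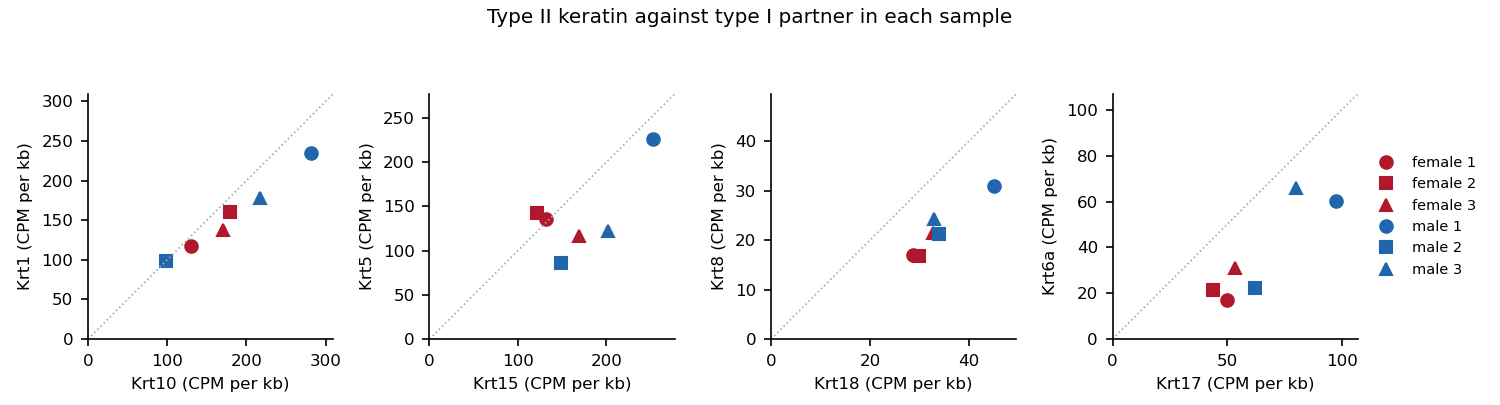
CPM per kb of a type II keratin (vertical axis) against its type I partner (horizontal axis), 1 point per sample, with a dotted line of equal levels. Krt1 and Krt10 lie along a line with male 1 at the top and male 2 at the bottom, while Krt5 against Krt15 and Krt6a against Krt17 scatter more.

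Desmosome genes shared by many epithelia held the member with the highest CPM and the only member lower in males at an unadjusted p under 0.05. Dsp (NM_023842, chr13:38243197-38290446), the desmoplakin that links desmosome and filament, was that most abundant member, at 815, 974 and 946 CPM in the females and 964, 707 and 1090.2 CPM in the males, with means of 912 ± 85 CPM in females and 920.3 ± 195 CPM in males (SD, n = 3). Its fold change was 0.01 ± 0.15 (SE, adjusted p = 0.983). Perp (NM_022032, chr10:18564877-18576879), a small membrane protein of desmosomes, was at 333, 429 and 358 CPM in the females and 567, 309 and 418 CPM in the males, a difference of 0.21 ± 0.19 (SE, adjusted p = 0.678). Jup (NM_010593, chr11:100230272-100259077), plakoglobin, which also serves in adherens junctions, was at 284, 298 and 326 CPM in the females and 413, 269 and 336 CPM in the males, a difference of 0.17 ± 0.15 (SE, adjusted p = 0.681). The sexes overlapped for Dsp, Perp and Jup, and male 2 was the lowest sample for each. Dsg2 (NM_007883), the desmoglein of simple epithelia and heart, was at 47.2, 55.8 and 38.8 CPM in the females and 37.3, 17.5 and 30.7 CPM in the males, with means of 47.3 ± 8.49 CPM in females and 28.5 ± 10.05 CPM in males (SD, n = 3) and a fold change of -0.71 ± 0.24 (SE, adjusted p = 0.341). Every female lay above every male, though female 3 and male 1 were close. The highest sample was 1.54 times the lowest for Dsp, 1.83 times for Perp, 1.53 times for Jup and 3.18 times for Dsg2. Dsc2 had 0 to 3 counts and both Pkp3 IDs 0 to 4 counts. For Dsc2 the tables held 1 of 3 RefSeq IDs. For Pkp3 they held both, but how reads shared by IDs of the same gene were counted is not known. Low counts of Dsc2 and Pkp3 therefore give no level for the gene.

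Hair and root sheath keratins harden the shaft and its sheaths, and 12 of 24 IDs had the counts to be tested. None of them stood at an unadjusted p under 0.05, against 11.5% of all tested IDs. Krt71 (NM_019956, chr15:101564381-101573540), a type II keratin of the inner root sheath, was at 15.53, 15 and 17.3 CPM in the females and 22.5, 13.7 and 15.3 CPM in the males, a difference of 0.11 ± 0.22 (SE, adjusted p = 0.877). Krt25 (NM_133730, chr11:99176830-99184265), a type I keratin of the same sheath, was at 13.7, 13.8 and 17.1 CPM in the females and 17.1, 16.3 and 13.6 CPM in the males, a difference of 0.07 ± 0.20 (SE, adjusted p = 0.919). Its 6 values were the most even of the named keratins, with the highest 1.26 times the lowest. Krt27 (NM_010666, chr11:99206879-99212418), also of the inner sheath, was at 2.59, 4.78 and 6.42 CPM in the females and 9.71, 6.56 and 6.49 CPM in the males, which gave 0.70 ± 0.36 (SE, adjusted p = 0.46). Its males lay just above its females. Krt73 (NM_212485, chr15:101623739-101632774) was at 4.04, 3.19 and 5.1 CPM in the females and 4.03, 3.51 and 5.29 CPM in the males, a difference of 0.05 ± 0.35 (SE, adjusted p = 0.971). The 12 IDs not tested had 0 to 9 counts, most of them keratins of the hair shaft such as Krt31, Krt34, Krt36, Krt81, Krt84 and Krt86. Among other keratins, Krt23 (NM_033373, chr11:99339288-99354451) was at 6.15, 8.77 and 7.85 CPM in the females and 10.7, 3.66 and 24.9 CPM in the males, a difference of 0.81 ± 0.48 (SE, adjusted p = 0.524) with male 3 highest and male 2 lowest. Krt12, Krt24 and Krt90 were at 0.162 to 2.27 CPM, and Krt42 and Krt88 had 0 to 5 counts.

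Genes that work with the members were counted by list. Of the 5 other desmosome IDs, 4 were tested. Evpl, envoplakin, was at 76.3, 75.4 and 124 CPM in the females and 165, 107 and 152 CPM in the males with a fold change of 0.61 ± 0.21 (SE, adjusted p = 0.344), and it was the only 1 of the list at an unadjusted p under 0.05 (25% of the 4, against 11.5% of all IDs). Its partner Ppl, periplakin, was at 109 to 201 CPM, Pkp2 at 5.19 to 12.3 CPM, and Cdsn, corneodesmosin, had 1 count in all. Of 20 IDs of the cornified envelope 14 were tested, 1 of them (Sbsn) at an unadjusted p under 0.05, higher in males (7.14%, near the 6.68% of all IDs). The most abundant were Krtdap, a secreted protein of differentiating keratinocytes, at 103, 155 and 116 CPM in the females and 205, 114 and 146 CPM in the males, Hrnr, hornerin, at 46.9, 104 and 74.6 CPM in the females and 121, 33.9 and 214 CPM in the males, and Abca12, the lipid transporter of the skin barrier, at 59.8, 66.4 and 63 CPM in the females and 80.4, 54.3 and 73.8 CPM in the males. Lor, loricrin, the main late envelope protein, was at 10.7, 18.3 and 14.4 CPM in the females and 50.4, 4.43 and 24.8 CPM in the males. Male 2 was the lowest sample for 9 of the 14 and male 1 the highest for 7, as for the suprabasal keratins. Of 16 IDs of epidermal transcription factors 11 were tested, and 1 ID of Grhl1 stood at an unadjusted p under 0.05 (9.09%, against 11.5% of all IDs). Klf4 was at 69.1 to 132 CPM and Klf5 at 43.5 to 85.7 CPM. None of these lists held a called ID.

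The label of whole brain was set against markers of brain and of other tissues. Brain markers were present, with Tubb3, a tubulin of neurons, at 1227 to 1970.1 CPM, Map2 at 518 to 632 CPM and Nes, of progenitors, at 474 to 575 CPM, while the Eomes ID had 1 count in all. Markers of other tissues were present too. The list of meninges and fibroblasts (15 of 16 IDs tested) summed to 13814 to 16513 CPM in females and 11054 to 18686 CPM in males, that of skeletal muscle (9 of 10) to 3978 to 4574 and 3575 to 4423 CPM, that of choroid plexus (6 of 9) to 599.8 to 712 and 736 to 899 CPM and that of brain (10 of 11) to 3302 to 3774 and 3515 to 4506 CPM. Cartilage markers (7 of 9) summed to 499, 366 and 398 CPM in the females and 155, 169 and 332 CPM in the males, and 4 of the 7 stood at an unadjusted p under 0.05, all higher in females (57.1%, against 4.82% of all IDs). The order of the samples for cartilage, lowest in male 1, was thus not that of the keratins. Of the 10 tested brain markers, 3 stood at an unadjusted p under 0.05 (Hes5, Sox2 and Tubb3), all higher in males like the simple keratins (30%, against 6.68% of all IDs), and Hes5, Sox2 and Dcx had every male above every female (30%, against 8.70% of all IDs). The other lists held 0 to 2 such IDs each. In the opposite direction, 3 of the 4 tested endothelium markers (Kdr, Flt1 and Cdh5) had every female above every male (75%, against 8.35% of all IDs). The remaining one, Cldn5, was higher in males at an unadjusted p under 0.05. Olfactory epithelium markers (5 of 5) summed to 87.5 to 103 and 83.6 to 89.4 CPM, endothelium markers (4 of 6) to 619 to 659 and 522 to 596 CPM, and pituitary and oral markers (3 of 10) to 37.9 to 46.8 and 49.9 to 61.5 CPM, with the IDs of Pomc and Lhx3 at 0 to 2 counts. The part of such tissues in the levels of the members was not tested.

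**Figure D5:**
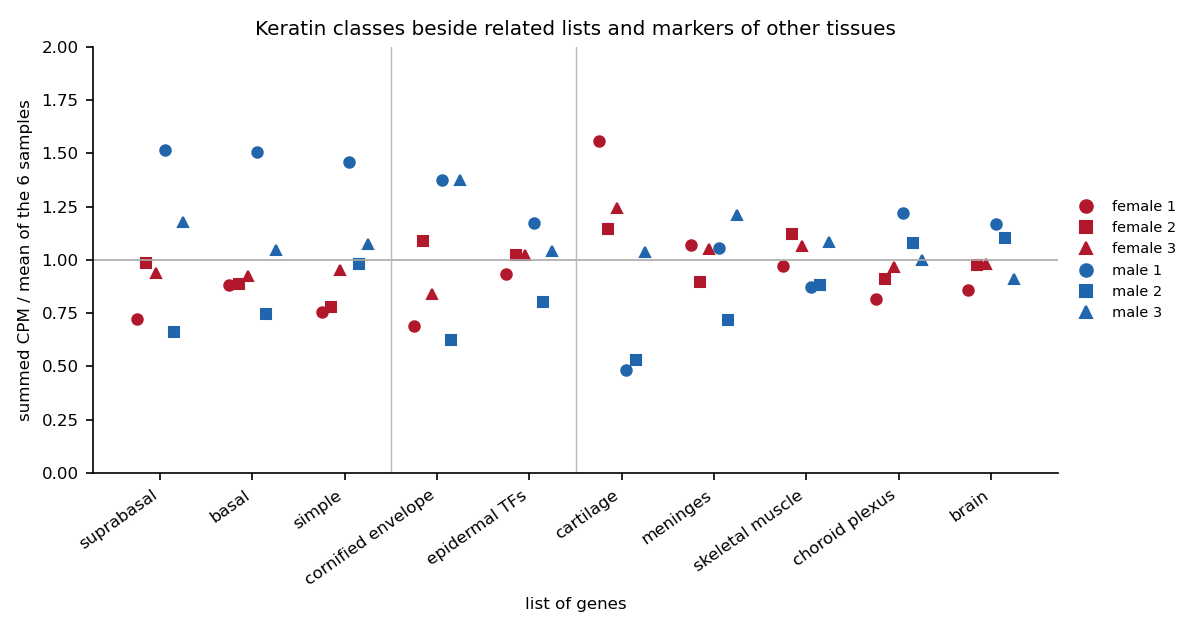
Summed CPM of each list in each sample divided by its mean over the 6 samples (red female, blue male), for 3 member classes, 2 related epidermal lists and markers of other tissues. Male 1 is high and male 2 low for the suprabasal, basal and cornified envelope lists, and both are low for cartilage.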

How the data were processed

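RNA was isolated from whole brains and stranded libraries of total RNA were made with an Illumina TruSeq kit. The submitters' processing notes and the study's methods name Trimmomatic 0.32 for trimming. Reads were aligned to mm9 (NCBIM37) with TopHat2 2.1.1, transcripts assembled with Cufflinks 2.2.1 and counted with featureCounts 1.5.1. The values deposited by the authors were raw counts per RefSeq transcript ID, 1 table per sample. How the counting treated shared reads and reads with several alignments, and its strand setting, are not given in the sources used here. Values of near-identical or overlapping genes, and of several IDs of the same gene, are therefore uncertain.

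A RefSeq gene table (GRCm38.p6) named 23355 of 23485 IDs. Positions and lengths came from the GENCODE annotation of NCBIM37 (longest transcript of the gene, protein-coding first), and 70 of 72 members had one. Promoter sequences came from RefSeq (GRCm38.p6). The members, classes and lists were chosen with earlier results of these data known. Values in every sample were given for the 30 tested members with the highest mean CPM, which included all members at an unadjusted p under 0.05, and related genes were named where they were called, among the 3 most abundant of their list, or without counts. Lor, Sbsn, Grhl1, Pkp2 and further markers were named after their values were seen. Some genes of these lists are not reported here.

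Male and female samples were compared with edgeR 4.0.16 (R 4.3.3, limma 3.58.1), by the quasi-likelihood F test with TMM factors and Benjamini-Hochberg adjustment, leaving out IDs that reached 10 counts in no sample. Each SE was computed from its fold change and F value. In a test on simulated data with 200 changed IDs among 13374, 99% were recovered and 7.91% of calls were false. Each changed ID was given a fold change larger than the estimate for any tested member, and only IDs above a minimum mean CPM were changed. The recovery of smaller changes, such as those of the members, was not tested. The alternatives were DESeq2 1.42.0, other factors and filters, 1 RUVr factor (the study itself used DESeq2 with RUVr), a replicate block, IDs summed per gene, and leaving out each sample in turn. No pair of same-sex samples agreed within sampling noise (chi-square per degree of freedom 9.03 to 44.9). Python 3.11.15, pandas 2.3.3 and matplotlib 3.10.9 were used.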

Additional observations from a re-analysis of the deposited data

How the results depend on the processing

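The number of members called at an adjusted p under 0.05 was 0 under edgeR with other factors, with a stricter filter, with 1 RUVr factor, with a replicate block and with IDs summed per gene. Of all IDs, 36 of 13374 were called with 1 RUVr factor and 4 in each of the other fits, so 0 members was near the share of all IDs. The number of members called was 2 with DESeq2 (Krt7 and Krt17), where 0.71% of all IDs were called, 5 with DESeq2 and 1 RUVr factor (Dsg2, Krt7, Krt15, Krt17 and Sfn), where 2.6% were, and 6 without the low-count filter (Dsg2, Krt7, Krt13, Krt15, Krt17 and Krt6a), where 1.18% were. Without that filter 18 of 72 members (25%) stood at an unadjusted p under 0.05, against 10% of all IDs. With each sample left out in turn, 0 to 2 members were called and 4 to 20 stood at an unadjusted p under 0.05, namely 4 of 48 (8.33%, against 5.73% of all IDs) without female 1, 5 of 48 (10.4% against 5.61%) without female 2, 11 of 48 (22.9% against 16.1%) without female 3, 6 of 45 (13.3% against 9.49%) without male 1, 20 of 47 (42.6% against 8.94%) without male 2 and 8 of 46 (17.4% against 14.4%) without male 3.

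Of the 30 named members 16 kept the direction of their fold change under all 15 alternatives, among them all 10 at an unadjusted p under 0.05. The other 14 reversed under at least 1, with the cause not tested. The log2 fold change of Dsg3 was -0.0042 with DESeq2, -0.0023 with RLE factors, -0.046 with upper-quartile factors and -0.0069 with DESeq2 and RUVr. Upper-quartile factors also gave -0.041 for Dsp, -0.044 for Krt75 and -0.00021 for Krt73, and DESeq2 with RUVr gave -0.012 for Krt5 and -0.018 for Krt75. With each sample left out in turn, the log2 fold changes that reversed ran as follows: Krt1 -0.0046 to 0.58, Krt10 -0.018 to 0.65, Krt5 -0.34 to 0.41, Perp -0.039 to 0.41, Dsp -0.12 to 0.18, Dsg1a -0.028 to 0.33, Dsg3 -0.20 to 0.24, Krt71 -0.14 to 0.25, Krt25 -0.0093 to 0.20, Krt80 -0.087 to 0.54, Krt23 -0.044 to 1.24, Lama3 -0.60 to 0.11, Krt75 -0.15 to 0.24 and Krt73 -0.13 to 0.25. For Krt1, Krt10, Krt5 and Perp the negative value was that without male 1. Several of the 16 also moved by more than 1.5 times without male 1, to a log2 fold change of 4.1e-05 for Jup, 0.04 for Krt77, 0.10 for Krt4, 0.13 for Krt18, 0.23 for Sfn, 0.29 for Krt79, 0.30 for Krt8, 0.32 for Krt15, 0.60 for Krt7 and 0.70 for Krt13. Without male 2 the values were 0.31 for Jup, 0.64 for Krt77, 0.67 for Krt4 and -0.46 for Dsg2, while without female 1 Krt77 had 0.15 and Krt27 0.42, and without female 3 Krt27 had 1.07.

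The samples share replicate numbers 1 to 3 between the sexes, but deviations of same-numbered samples did not go together (correlations -0.287, -0.0643 and -0.203), so they were not treated as paired. With a replicate block 0 members were called, where 4 of 13374 IDs were. At an unadjusted p under 0.05 stood 10 of 48 members (20.8%, against 8.41% of all IDs). In that fit the log2 fold changes of Dsp, Dsg3 and Krt75 were -0.0040, -0.033 and -0.0080. With 3 pools per sex and no record of batch, differences smaller than the spread between pools could not be resolved, and members near 3 counts have no usable level.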

Other observations

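Epithelial adhesion genes outside the rule were at levels like those of the shared desmosome genes or below. Of 14 IDs 13 were tested. Cdh1, the E-cadherin of adherens junctions, was at 184, 212 and 175 CPM in the females and 229.5, 112 and 178 CPM in the males and had a log2 fold change of -0.13 ± 0.20 (SE, adjusted p = 0.832). Male 1 was its highest and male 2 its lowest sample. Cldn1, a claudin of the skin barrier, was at 59.5 to 94.5 CPM, and Epcam, a membrane protein of simple epithelia, at 53 to 61.6 CPM in females and 64.5 to 74.4 CPM in males. Males lay above females without overlap for 2 of the 13 (15.4%), Epcam and Cldn6, against 8.70% of all IDs. Male 1 was the highest sample for 10 of the 13.

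The basement membrane list had another order of samples. Of 10 IDs 6 were tested, none at an unadjusted p under 0.05, against 11.5% of all tested IDs. Fras1, an extracellular protein under embryonic epithelia, was at 395, 328 and 330.2 CPM in the females and 246, 267 and 375 CPM in the males. Frem2, its partner, was at 231 to 274 CPM in females and 204 to 263 CPM in males. For both, the lowest samples were males 1 and 2. Both Lamb3 IDs had 0 or 1 count.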
